A study of Rattus norvegicus with 4 samples.

Results

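Cultures of rat heart muscle cells that received a mimic of miR-25 were compared with cultures that received a mimic of miR-106b or miR-93, the other two miRNAs of the same cluster. The cells were ventricular cardiomyocytes isolated from neonatal wild-type Wistar rats and kept in culture. The age is labelled as postnatal day 1, but 1 of the protocols gives day 0. Each culture was transfected with 1 mimic, which was hsa-miR-25-3p, hsa-miR-93-5p or hsa-miR-106b-5p, or cel-miR-67, a worm miRNA that served as control. The labels give a dose of 25 nM in the description of treatment and the same figure in mM in the description of extraction, and RNA was taken 72 h after transfection. All cultures, the control included, carried a mimic and the lipid reagent that delivered it.

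For each gene, the log2 RPKM with miR-25 was set against the mean of the log2 RPKM with miR-106b and miR-93, which are called the pair here, and where the pair has 2 values, that of miR-106b stands first. RPKM is the read count of a gene per 1000 bases of its length and per 1000000 reads of the library. Genes with an RPKM above 1.0 in all 3 libraries entered, which left 11079 of the 15731 genes listed. At this cutoff Rpl37 entered with a lowest RPKM of 1.00025, and Arhgap8 did not enter with 0.998697. The cel-miR-67 library did not enter the difference, and its values stand beside it. Each mimic had 1 library, so no test between conditions could be made, and no difference below has a replicate check. The 2 libraries of the pair came from different mimics, so the gap between them holds the difference of these mimics together with the spread between cultures. These cultures hold many cells each, so fewer cells of a type and less RNA per cell cannot be told apart.

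A miRNA guides an Argonaute protein to messenger RNAs, mostly to sites in the 3′ untranslated region that pair with its seed, the bases at positions 2 to 8 from the 5′ end. Pairing lowers the level or the translation of the messenger RNA, and miRNAs with the same seed share many of their targets. miR-106b and miR-93 belong to the large family of miR-17 and miR-20a, which is known for its action on p21 and on other brakes of the cell cycle, while miR-25 belongs to the family of miR-92 and miR-363. The 3 miRNAs are processed from an intron of Mcm7, a gene of the replicative helicase.

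The mature rat sequences are shown because they set out the contrast of the comparison. They are given 5′ to 3′ from RefSeq, with the seed in capitals. All 3 lie on the minus strand of chromosome 12 of the GRCr8 build within 472 bases, with miR-106b at chr12:22157103-22157123, miR-93 at chr12:22156894-22156916 and miR-25 at chr12:22156652-22156673.
rno-miR-106b-5p: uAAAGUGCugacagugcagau
rno-miR-93-5p: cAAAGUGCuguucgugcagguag
rno-miR-25-3p: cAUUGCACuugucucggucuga
miR-106b and miR-93 shared all 7 seed bases and 16 of their first 21 positions. miR-25 shared 3 of 7 seed positions with either of them, and 5 of 21 positions with miR-106b and 8 of 21 with miR-93. The transfected mimics carry human names, and their sequences were not checked against these rat sequences.

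Reads on listed genes, as recovered from the RPKM values, numbered 18797612 and 16520309 in the pair, 16460309 with miR-25 and 15175430 with the control. Tested genes had a median of 550 reads with miR-25, and 89 of them had fewer than 20 reads in a library of the difference. The 95% intervals given for single genes cover counting error only. Genes that mark heart muscle were abundant in all libraries, with RPKM summed over 11 markers of 16710 and 12811 in the pair, 12592 with miR-25 and 17777 with the control. Without Nppa these sums were 15102, 12549, 8167 and 15916 in the same order, so the miR-25 library was the lowest. Of the 11 markers, 7 were 1.3-fold or more lower and 1 was higher (22.8% and 21% of all genes tested). Summed endothelial markers stood between 8.23 and 11.8 RPKM and macrophage markers between 19.9 and 32.6, and the endothelial marker Cldn5 was at 0 in at least 1 library of the difference.

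miR-25 stood apart from the pair over much of the measured transcriptome. With miR-25, 2330 genes were 1.3-fold or more higher than the pair mean (21% of the genes tested) and 2528 were 1.3-fold or more lower (22.8%), which together made 43.8%. At 2-fold, 464 genes were higher (4.19%) and 626 were lower (5.65%). The median of all 11079 differences was −0.01 on the log2 scale, with an SD over genes of 0.622. The same measure between miR-93 and miR-106b gave an SD over genes of 0.304, with 756 genes 1.3-fold or more higher with miR-93 (6.82%) and 902 lower (8.14%). Past 1.3-fold in either direction were 15% of genes between miR-106b and miR-93, 45% between miR-106b and miR-25 and 45.1% between miR-93 and miR-25. The value with miR-25 lay 1.3-fold or more above both libraries in 1874 genes (16.9%) and below both in 1996 genes (18%), and a further 988 genes were past the cutoff by the mean alone. The control lay nearer to the pair than to miR-25 in 1900 of the 2528 lower genes (75.2%) and in 1523 of the 2330 higher genes (65.4%), against 63.5% of all genes tested.

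**Figure D1:**
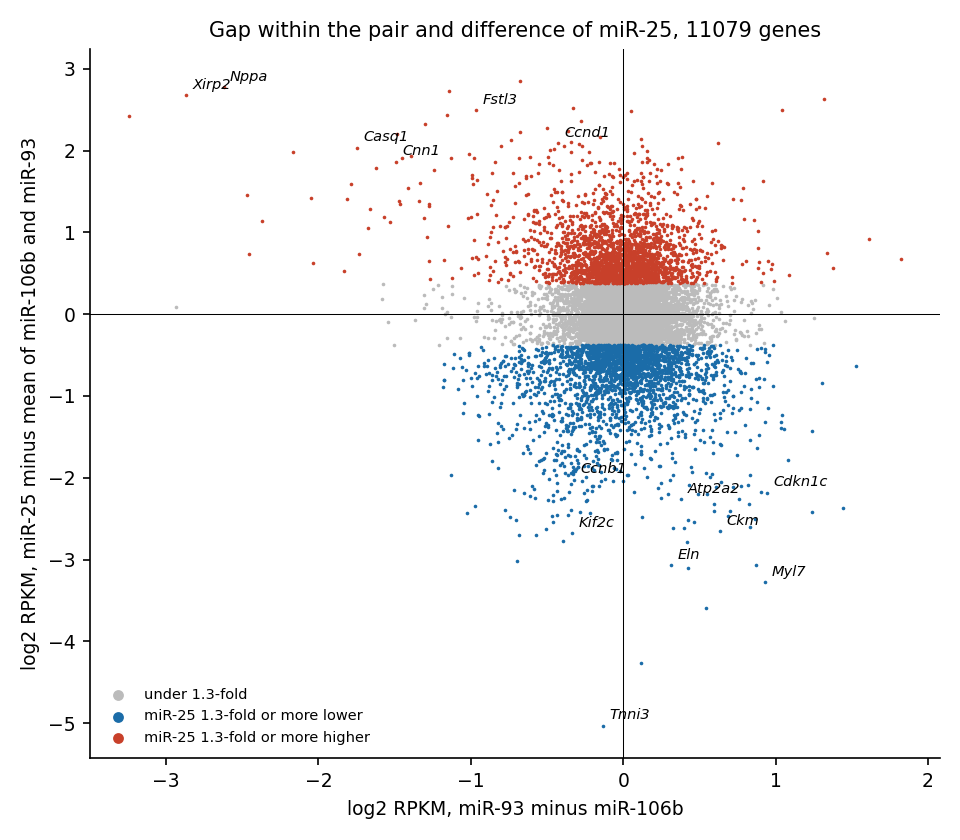
Each point is 1 of 11079 genes, with the log2 RPKM of miR-93 minus that of miR-106b on the horizontal axis and the log2 RPKM of miR-25 minus the pair mean on the vertical axis. Blue and red points are 1.3-fold or more lower or higher with miR-25. Tnni3 lies at the bottom near a gap of 0, while Nppa and Xirp2 lie at the top with miR-93 far below miR-106b.

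Genes of DNA replication were lower with miR-25. Of 55 tested members of the S phase list, 50 were 1.3-fold or more lower (90.9%, against 22.8% of all genes tested), none was higher, and 34 were 2-fold or more lower (5.65% of all genes tested), with a median of −1.10 against −0.01 over all tested genes. All 50 lay below both libraries of the pair by that margin. Gins1, a subunit of the complex that activates the replicative helicase, had 9.89 and 6.02 RPKM in the pair, 1.74 with miR-25 and 7.21 with the control. Its value with miR-25 was below all other libraries, at a log2 difference of −2.15 (95% interval −2.57 to −1.73). The nuclease Exo1 stood at −1.78 and the histone chaperone Asf1b at −1.75. Tyms, which makes thymidylate, was the highest of the list at 0.19, and Pold3, a subunit of DNA polymerase delta, stood at −0.10.

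Genes of mitosis were lower as well. Of 71 tested members of the G2/M list, 66 were 1.3-fold or more lower (93%), none was higher, and 59 were 2-fold or more lower, with a median of −1.63. The median was −1.75 against miR-106b alone and −1.47 against miR-93 alone. Ccnb1, the cyclin that drives entry into mitosis, had 46.1 and 36.9 RPKM in the pair, 10.2 with miR-25 and 10.4 with the control. The 2 libraries of the pair were high, and miR-25 lay beside the control, with a log2 difference of −2.02 (95% interval −2.16 to −1.88). Ccna2, the cyclin of S phase and early mitosis, had 14.3 RPKM with both mimics of the pair, 4.55 with miR-25 and 10.8 with the control. Here the control stood between the pair and miR-25. The largest difference of the list was that of Kif2c, a kinesin that takes microtubule ends apart at the centromere, which had 10.2 and 8.10 RPKM in the pair, 1.42 with miR-25 and 5.49 with the control. The mitotic kinase Pbk stood at −2.29, Birc5, also known as survivin, at −2.26, the spindle protein Nusap1 at −2.24 and Cdca3, a trigger of mitotic entry, at −2.22. The citron kinase Cit, which acts in cytokinesis, stood at −0.11, and Gtse1, which acts on microtubules and p53 in G2, was the only member above 0, at 0.25.

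Within the pair, the median gap of miR-93 from miR-106b was −0.32 in the G2/M list and −0.21 in the S phase list. The miR-93 value was 1.3-fold or more below that of miR-106b in 23 of the 71 G2/M genes and 10 of the 55 S phase genes, and above it by that margin in none. Over all tested genes it was below in 8.14% and above in 6.82%. The control lay nearer to the pair than to miR-25 in 75.2% of all lower genes. In the G2/M list it did so in 56 of 66 genes past the cutoff, and in the S phase list in 46 of 50. Ccnb1 and Birc5 were among the exceptions, with the control nearer to miR-25.

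Promoters bear on these lists because 2 short elements are known for them. Late cell cycle genes often carry the CHR element, with the letters TTTGAA or TTCGAA, near the start site, and genes of replication often carry E2F sites. Either CHR form on either strand was found in 47 of 64 promoters of the G2/M list (73.4%), in 10 of 45 of the S phase list (22.2%) and in 13.3% of the 8171 tested genes matched to a RefSeq promoter of 300 bases. Letters of E2F sites, searched as TTCGCGC together with its variants TTGGCGC and, with the cytosines in a row, TTCCCGC, were found in 71.1% of the S phase promoters, 18.8% of the G2/M promoters and 15.9% of all. The letters CCAAT were found in 73.4% of G2/M, 60% of S phase and 38.4% of all promoters. These matches describe the promoters of whole lists, members that were not 1.3-fold lower included, and no binding was measured. Among such members of the G2/M list, Anln at −0.23, Cdc25c at −0.17, Cit at −0.11 and Kif23 at −0.29 also held a CHR match. In 24 of the 47 G2/M promoters with a match, the one nearest the start site began within the 60 bases before it. The windows of 30 bases below show that match, in capitals, in genes of mitosis that were 2-fold or more lower with miR-25, on the strand of the gene and in the GRCr8 build.
Cdk1, chr20:19265265-19265294, plus strand: taccgcggtgagTTTGAAactgctggcact
Birc5, chr10:103572126-103572155, plus strand: ccgcccgcgggtTTTGAAttagggattgtg
Prc1, chr1:143659451-143659480, plus strand: cctccggctcggTTTGAAttccgcggggtc
Cdc20, chr5:137255833-137255862, minus strand: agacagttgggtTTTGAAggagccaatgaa
Top2a, chr10:84473098-84473127, minus strand, with the match on the other strand: gctagatgaatgTTCAAAtgaaactaggga
Cdk1, the kinase that partners Ccnb1, had 37.3 and 29.8 RPKM in the pair, 8.93 with miR-25 and 23.7 with the control. Top2a, which untangles replicated DNA, had 54.5, 39.6, 10.0 and 29.8 RPKM in the same order. The anaphase activator Cdc20 stood at −1.56 and the midzone protein Prc1 at −2.13.

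The G1 list, which holds D and E cyclins, their kinases and their inhibitors, did not share this direction. Of 26 tested members, 6 were 1.3-fold or more higher and 8 were lower (21% and 22.8% of all genes tested), with a median of −0.07. Ccnd1, the cyclin that opens G1, had 7.74 and 5.76 RPKM in the pair, 28.4 with miR-25 and 18.6 with the control. Ccnd2 had 65.1, 53.2, 196 and 98.5 RPKM in the same order. In both cyclins miR-25 was highest, the control came next and the pair was lowest, at log2 differences of 2.09 (95% interval 2.02 to 2.15) and 1.74 (1.68 to 1.79). Ccne1 and Ccne2, which act at the entry into S phase, differed less, at −0.51 and −0.31.

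The inhibitors of the list lay on both sides. Cdkn1a, which encodes the p21 inhibitor of cyclin-dependent kinases, had 9.90 and 7.02 RPKM in the pair, 31.5 with miR-25 and 9.61 with the control. The pair and the control were close to each other and miR-25 stood above them, at a log2 difference of 1.92. Cdkn1c, which encodes the inhibitor p57, had 5.13, 9.86, 1.57 and 1.501 RPKM in the same order. For this gene miR-25 and the control were close to each other and the pair stood above them, at −2.18. Cdkn2b, the p15 inhibitor, stood at 1.67, and E2f3, a transcription factor of the G1 to S transition, at 0.01. Wee1, which restrains Cdk1, had 8.01 and 7.78 RPKM in the pair, 6.89 with miR-25 and 12.5 with the control. Its value with miR-25 differed from the pair by −0.20, and all 3 were below the control. E2f5, a repressor E2F, stood at 0.27.

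**Figure D2:**
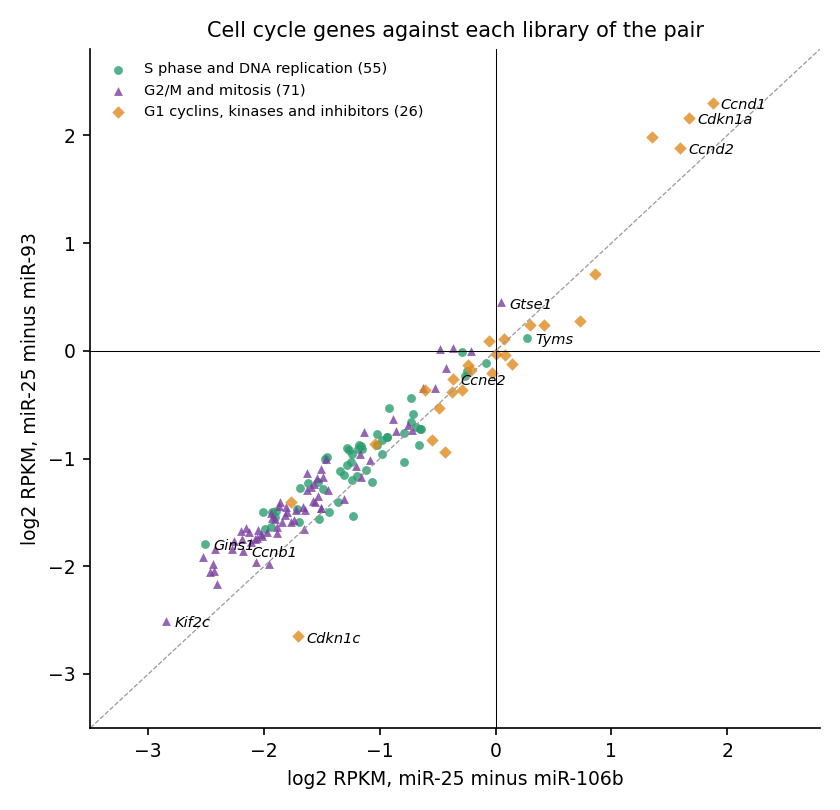
Each point is a gene of the S phase, G2/M or G1 list, with the log2 RPKM of miR-25 minus miR-106b on the horizontal axis and minus miR-93 on the vertical axis, and the dashed line marks equal differences. S phase and G2/M genes fill the lower left, where miR-25 is below both libraries, while Ccnd1, Ccnd2 and Cdkn1a lie in the upper right.

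Targets of p53, the tumour suppressor that drives Cdkn1a, were mostly on the high side. Of 28 tested members, 17 were 1.3-fold or more higher (60.7%, against 21% of all genes tested) and 5 were lower (17.9%, against 22.8%), with a median of 0.49. Eda2r, a death receptor, had 4.40 and 4.06 RPKM in the pair, 11.7 with miR-25 and 4.48 with the control, and Zmat3, an RNA-binding protein, stood at 1.41. For Eda2r the 3 other libraries were close to each other. Zmat3 had 5.89 and 5.36 RPKM in the pair, 14.9 with miR-25 and 4.30 with the control. The death effector Perp and the reductase Dcxr went the other way, at −1.56 and −1.39, and Sesn2, a stress sensor, stood at 0.09.

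Lists of targets known for each seed family went in opposite directions. Both lists were written from general knowledge with earlier results of these libraries known, so their direction is no independent evidence. Of 46 tested targets of the miR-17, miR-106 and miR-93 family, 27 were 1.3-fold or more higher with miR-25 and 3 were lower (21% and 22.8% of all genes tested), with a median of 0.50. Rhoc, a small GTPase of the cytoskeleton, had 33.9 and 23.2 RPKM in the pair, 100.1 with miR-25 and 90.9 with the control. Zbtb4, a transcriptional repressor that binds methylated DNA, had 2.06, 2.10, 6.90 and 5.45 RPKM in the same order. Abca1, the cholesterol exporter, had 4.84, 5.47, 16.985 and 14.2 RPKM. In these 3 genes the control lay beside miR-25, so the pair was the low side. This was not so for all of the list, since the control lay nearer to the pair in 14 of the 30 genes past the cutoff, Cdkn1a among them. Over all tested genes it did so in 65.4% of the higher and 75.2% of the lower genes.

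Of 39 tested targets of the miR-25, miR-92 and miR-363 family, 20 were 1.3-fold or more lower with miR-25 and 2 were higher (22.8% and 21% of all genes tested), with a median of −0.39. The control lay nearer to the pair in 19 of the 22 genes past the cutoff. Over all tested genes it did so in 75.2% of the lower and 65.4% of the higher genes. Dkk3, a secreted protein of the Dickkopf family, had 32.1 and 43.3 RPKM in the pair, 8.76 with miR-25 and 25.4 with the control. Hand2, a transcription factor of heart development, had 58.2, 66.0, 23.4 and 44.9 RPKM in the same order. For both genes miR-25 was the lowest library by a margin wider than the gap within the pair, at −2.09 and −1.41. Robo2, an axon guidance receptor, was higher with miR-25 at 1.24, and Mef2d, a muscle transcription factor, stood at −0.04. Bcl2l11, which encodes the cell death protein BIM, is one of 4 tested genes in both lists and had 4.22, 6.57, 1.27 and 1.83 RPKM, with the control nearer to miR-25. The 3′ untranslated regions were not searched for seed matches here.

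Genes of the contractile apparatus lay on both sides. Of 39 tested members of the sarcomere list, 19 were 1.3-fold or more lower (48.7%, against 22.8% of all genes tested), 7 were higher (17.9%, against 21%) and 13 were between, with a median of −0.38. Tnni3, the cardiac form of the inhibitory troponin subunit, had 543 and 495 RPKM in the pair, 15.9 with miR-25 and 351 with the control. The library with miR-25 was far below the 3 others, at a difference of −5.03 (95% interval −5.18 to −4.88), or 32.6-fold. Myl7, the regulatory light chain of atrial muscle, had 81.2, 155, 11.6 and 18.9 RPKM in the same order. In that gene the pair was high, and both miR-25 and the control were low, at −3.28. The fetal light chain Myl4, with 262, 149.8, 90.2 and 83.2 RPKM, also had a high pair, and its lowest value was that of the control.

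Of the other sarcomere genes, Myom2, an M-band protein, had 13.4 and 23.8 RPKM in the pair, 2.94 with miR-25 and 34.0 with the control. The main myosin heavy chains of the rat ventricle, Myh6 and Myh7, stood at −0.79 and −0.60, and the actin crosslinker Actn2 at −0.17. Lmod2, which lengthens thin filaments, stood at 0.00 by the mean. Its libraries ran from 52.0 RPKM with miR-93 through 78.3 with miR-25 and 117 with miR-106b to 167 with cel-miR-67. Xirp2, an actin-binding protein of the intercalated disc, had 20.6 and 2.82 RPKM in the pair, 48.7 with miR-25 and 63.0 with the control. Its difference of 2.67 by the mean was 1.24 against miR-106b alone and 4.11 against miR-93 alone.

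Calcium handling and excitation genes were mostly on the low side. Of 30 tested members, 16 were 1.3-fold or more lower (53.3%, against 22.8% of all genes tested) and 3 were higher (10%, against 21%), with a median of −0.44. Atp2a2, the calcium pump of the sarcoplasmic reticulum, had 434 and 565 RPKM in the pair, 103 with miR-25 and 422 with the control. The pair and the control were close and miR-25 was the low library, at −2.26 (95% interval −2.28 to −2.24). Cacna1g, a T-type calcium channel, stood at −1.41, the pacemaker channel Hcn4 at −1.36, the potassium channel Kcnh2 at −1.27 and the connexin Gja5 at −1.22. Kcnj2, the inward rectifier, stood at 0.01, and Pln, the inhibitor of the calcium pump, at −0.28 with 358 and 320 RPKM in the pair, 279 with miR-25 and 374 with the control.

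Growth-associated genes split evenly, with 10 of 30 tested members 1.3-fold or more higher, 10 lower (21% and 22.8% of all genes tested) and a median of 0.04. Nppa, the atrial natriuretic peptide precursor, had 1607 and 261 RPKM in the pair, 4425 with miR-25 and 1860 with the control. miR-25 was the highest library and miR-93 the lowest, and miR-106b lay beside the control. The difference of Nppa was 2.77 by the mean, 1.46 against miR-106b alone and 4.08 against miR-93 alone. Fhl1, a LIM protein of hypertrophic signalling, had 163, 47.3, 263 and 259 RPKM in the same order, again with miR-93 low, and its difference of 1.58 was 0.69 without miR-93. Its relative Fhl2 went the other way, with 308, 343, 81.4 and 215 RPKM. The growth factor Fgf2 stood at 1.55, Igf2 at −1.93 and Mef2c, a muscle transcription factor, at 0.03.

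**Figure D3:**
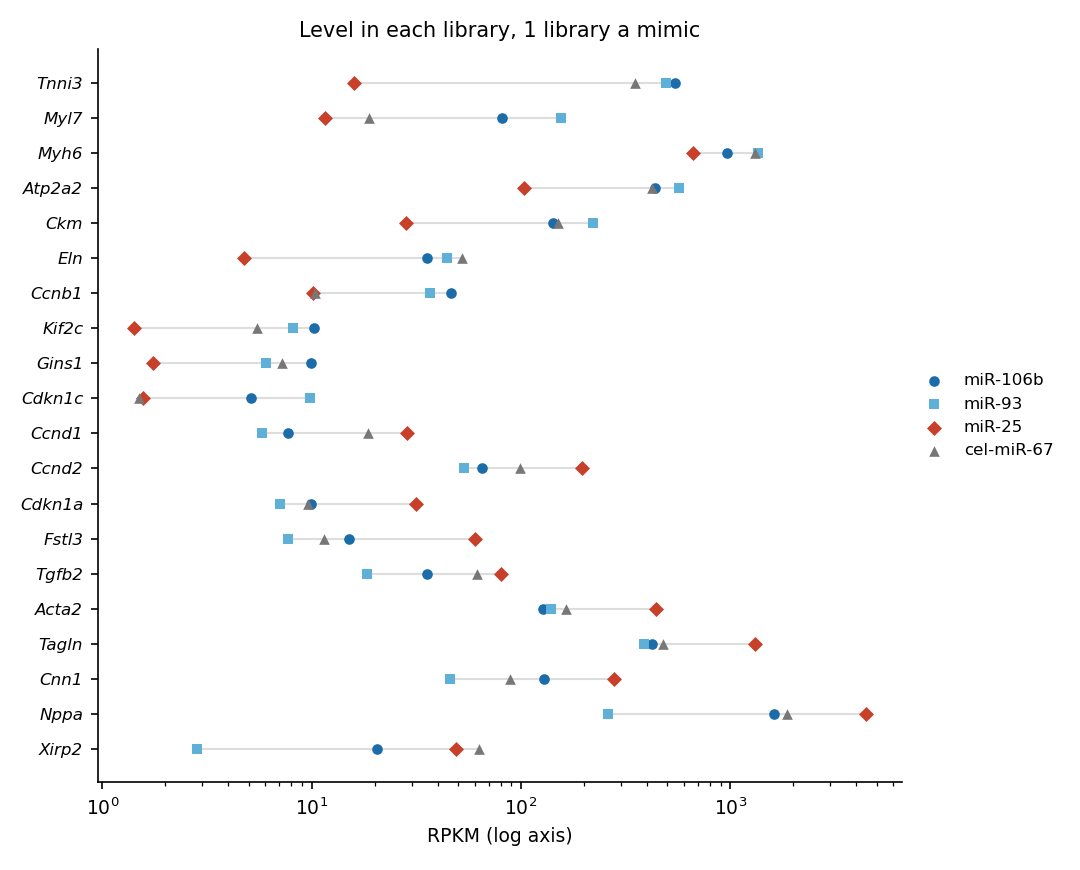
Each row is a gene and each point its RPKM in 1 library, on a log axis, with 1 library for each of the 4 mimics. For Tnni3, Atp2a2 and Eln the miR-25 library stands alone on the low side, and for Acta2, Tagln and Cdkn1a it stands alone on the high side, while for Myl7, Ccnb1 and Cdkn1c it lies beside the control.

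Of the genes of smooth muscle and of serum response factor, more were higher than lower. Of 26 tested members, 13 were 1.3-fold or more higher and 3 were lower (21% and 22.8% of all genes tested), with a median of 0.40 that was 0.37, under the 1.3-fold line, without miR-93. Acta2, smooth muscle actin, had 128 and 139 RPKM in the pair, 440 with miR-25 and 164 with the control. Tagln, which binds actin, had 422, 388, 1306 and 478 RPKM in the same order, and the smooth muscle myosin Myh11 had 7.62, 10.4, 27.6 and 13.8. In these 3 genes the miR-25 library stood above all others. Cnn1, calponin, stood at 1.86, or 1.12 without miR-93, since its pair was wide, with 128 RPKM with miR-106b and 45.6 with miR-93. The myosin kinase Mylk stood at 0.04. Summed over 12 markers of smooth muscle and pericytes, RPKM was 760 and 664 in the pair, 2125 with miR-25 and 829 with the control, and the sum of 11 fibroblast markers was 665, 768, 352 and 853 in the same order. These sums rest on genes of the actin and matrix lists themselves. Without the 6 markers that the smooth muscle list also holds, the 6 others summed to 40.4 and 43.2 RPKM in the pair, 42.3 with miR-25 and 46.5 with the control. Without the 6 that the matrix list holds, the 5 other fibroblast markers summed to 43.7, 45.5, 43.9 and 54 RPKM in the same order. That sum holds differences in both directions, with Tcf21 at −1.43, Thy1 at 0.83, Ddr2 at −0.03 and Pdgfra at 0.11. Of 10 tested smooth muscle and pericyte markers, 4 were 1.3-fold or more higher, namely Myh11, Acta2, Tagln and Cnn1, while Actg2, another smooth muscle actin, stood at −0.19 and the pericyte marker Cspg4 at −0.12.

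Of 46 tested matrix genes, 12 were 1.3-fold or more higher (26.1%, against 21% of all genes tested) and 16 were lower (34.8%, against 22.8%). The median was −0.09, and 0.11 without miR-106b. Eln, elastin, had 35.6 and 44.2 RPKM in the pair, 4.74 with miR-25 and 52.3 with the control, at −3.07. Col1a2, a chain of type I collagen, had 244, 265, 77.6 and 284 RPKM in the same order, at −1.71. Both were lowest with miR-25 by more than the gap within the pair. Lum, a proteoglycan that binds collagen, and Lox, which crosslinks collagen and elastin, were higher, at 1.76 and 1.64.

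In the TGF-beta, activin and BMP list, 18 of 37 tested members were 1.3-fold or more higher and 3 were lower (21% and 22.8% of all genes tested), with a median of 0.27 that was 0.54 without miR-106b. Of the ligands, Tgfb2 had 35.7 and 18.3 RPKM in the pair, 79.9 with miR-25 and 61.8 with the control. Of the receptors, Tgfbr2 had 8.36, 9.27, 20.4 and 16.8 RPKM in the same order. In both the control lay nearer to miR-25, and the pair was low. Of the extracellular regulators, Fstl3, which binds and blocks activin, had 14.99, 7.68, 60.4 and 11.4 RPKM, with miR-25 alone on the high side at 2.49. The latent TGF-beta binding protein Ltbp2 stood at 1.77. Of the nuclear corepressors, Skil stood at 1.02 and Ski at 0.00.

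In the Hippo list, 10 of 25 tested members were 1.3-fold or more higher and 1 was lower (21% and 22.8% of all genes tested), with a median of 0.31. Among the kinases and their partners that restrain the coactivators YAP and TAZ, Mob1a had 13.7 and 16.0 RPKM in the pair, 44.8 with miR-25 and 23.8 with the control. Stk4 stood at 1.104 and Sav1 at 0.70, and in all 3 the control lay nearer to the pair. Of the coactivators, Wwtr1, which encodes TAZ, stood at 0.73 and Yap1 at 0.31, and of the transcription factors they act on, Tead2 stood at −0.16. The cadherin Fat4 stood at 0.01.

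Respiratory chain genes were lower with miR-25 with few exceptions. Of 59 tested nuclear genes of the respiratory chain, 56 were 1.3-fold or more lower (94.9%, against 22.8% of all genes tested), none was higher, and 17 were 2-fold or more lower, with a median of −0.80. The control lay nearer to the pair in 55 of the 56 (75.2% of all lower genes). Ndufa5, a subunit of complex I, had 92.5 and 80.1 RPKM in the pair, 20.1 with miR-25 and 107 with the control. Cox8b, a muscle form of a cytochrome oxidase subunit, had 20.3 RPKM with both mimics of the pair, 4.95 with miR-25 and 24.1 with the control. In both genes miR-25 stood far below the 3 other libraries. Ndufb9, another subunit of complex I, stood at −0.01.

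These genes are short, and short genes as a whole were on the low side. The length behind the RPKM had a median of 748 bases in this list. Among the decile of tested genes with the shortest lengths, 64 to 797 bases, 41.6% were 1.3-fold or more lower, 14.2% were higher and the median was −0.27. Among the decile with the longest lengths, 5566 to 31193 bases, 17.3% were lower, 25.2% were higher and the median was 0.07. With the median of its length decile taken from each gene, the respiratory chain list stood at −0.68, the G2/M list at −1.68 and the S phase list at −1.12. The same step took the cytosolic ribosomal proteins, with a median length of 613 bases, from −0.35, or −0.17 without miR-106b, to −0.13. Of 49 of these proteins 24 were 1.3-fold or more lower, but only 7 were below both libraries by that margin. They were also lower with miR-93 than with miR-106b by a median of 0.32. The part of gene length in the differences of single genes was not tested. Ribosomal protein genes have many near-identical copies, so their reads may be split between copies.

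**Figure D4:**
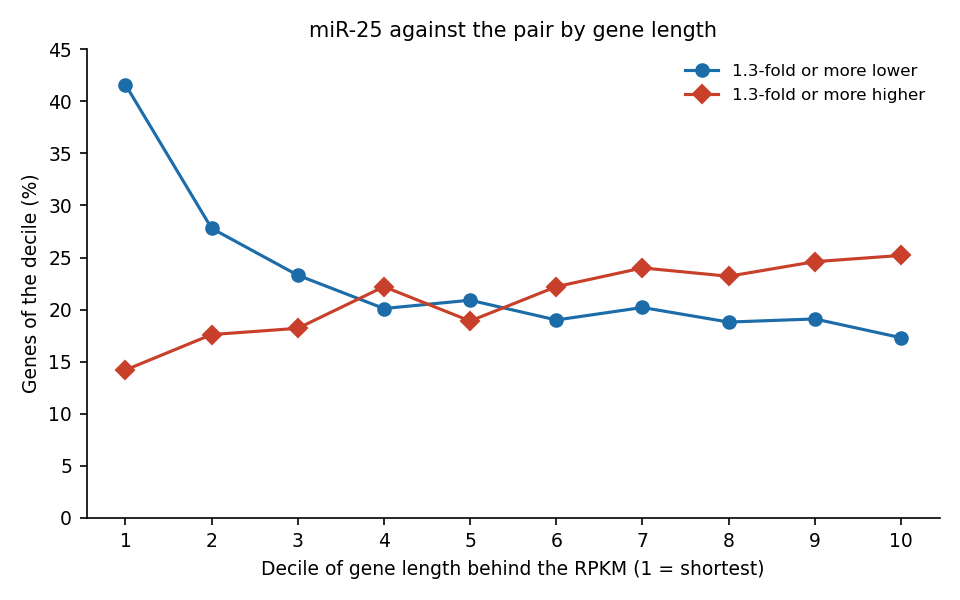
The share of genes 1.3-fold or more lower (blue) or higher (red) with miR-25 than with the pair is plotted for each decile of the tested genes by the length behind the RPKM. The lower share is 41.6% in the shortest decile and 17.3% in the longest, and the higher share is 14.2% and 25.2%.

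For fatty acid oxidation and the TCA cycle, 18 of 40 tested genes were 1.3-fold or more lower and none was higher (22.8% and 21% of all genes tested), with a median of −0.34. Fabp3, the fatty acid carrier of heart, had 571 and 420 RPKM in the pair, 248 with miR-25 and 407 with the control. Of 23 glycolysis genes, 10 were lower and 3 were higher, with a median of −0.22 that was −0.12 without miR-106b and −0.34 without miR-93. Pgam2, the muscle form of phosphoglycerate mutase, had 26.9 and 35.9 RPKM in the pair, 4.51 with miR-25 and 11.1 with the control, and stood at −2.79. Eno3, the muscle enolase, stood at −2.11, while Eno1, the enolase of most cells, stood at −0.02. The mutases did not differ in this way, since Pgam1, a form not limited to muscle, stood at −1.73. Aldoc, an aldolase, stood at −2.26. Sterol and fatty acid synthesis had 7 of 30 genes higher and 4 lower, with a median of −0.05 that was 0.05 without miR-106b, and Insig1, a sterol sensor, stood at −1.19.

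Of 50 tested lysosome and autophagy genes, 20 were 1.3-fold or more higher (40%, against 21% of all genes tested), 2 were lower and 28 lay between, with a median of 0.28. Sqstm1, the cargo receptor p62, had 28.1 and 30.3 RPKM in the pair, 58.8 with miR-25 and 38.7 with the control. Atg16l1, which acts in the lipidation of LC3, had 3.39, 3.83, 6.93 and 6.75 RPKM in the same order, with the control beside miR-25. The lysosomal receptor Scarb2 stood at 0.00.

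Of 25 tested interferon response genes, 15 were 1.3-fold or more lower (60%, against 22.8% of all genes tested) and 2 were higher (8%, against 21%), with a median of −0.60. Usp18, a brake on interferon signalling, had 17.4 and 13.2 RPKM in the pair, 2.22 with miR-25 and 10.6 with the control, and stood at −2.77. The antiviral GTPase Mx2 stood at −2.07 and Oasl2 at 0.03. In the list of chemokines and inflammation, 6 of 16 tested genes were higher and 3 were lower, among them Il1rl1, the interleukin-33 receptor, at 1.51 and the chemokine Ccl7 at −1.43. In the list of the unfolded protein response and its regulator ATF4, 14 of 34 genes were lower and none was higher, with a median of −0.30. Mthfd2, of mitochondrial folate metabolism, stood at −1.17, and the glutathione-degrading enzyme Chac1 at −1.27. For the miRNA machinery, 3 of 21 genes were higher and 2 were lower, with Ago1 at 1.14, Ago2 at 0.77 and Dicer1 at −0.46.

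**Figure D5:**
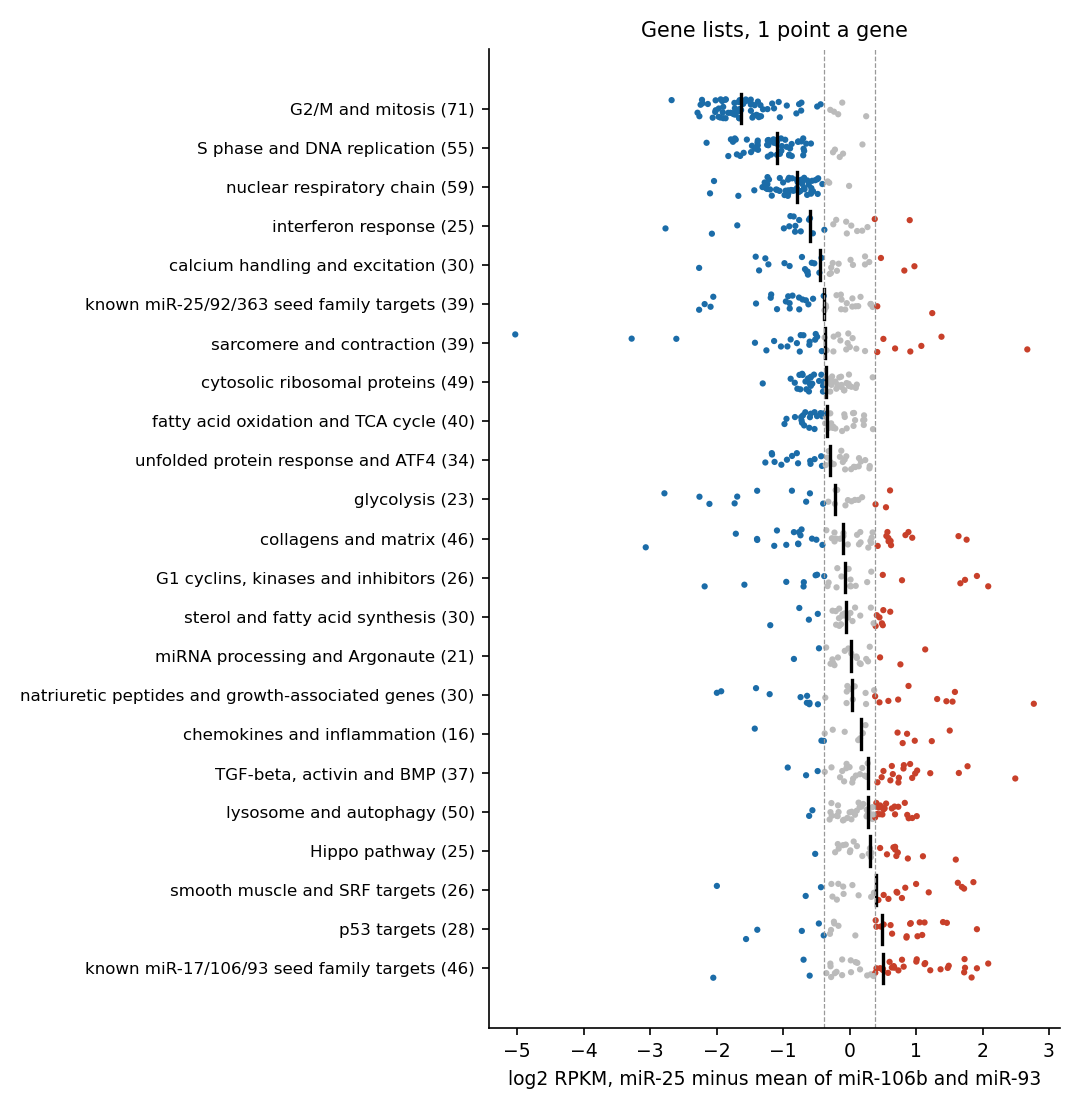
Each point is a gene, placed by its log2 RPKM with miR-25 minus the pair mean, with the number of tested members beside the name of the list, a black bar at the list median and dashed lines at 1.3-fold. The G2/M, S phase and respiratory chain lists lie almost wholly on the lower side, and the lists of miR-17 family targets and p53 targets have the highest medians of those drawn, 0.50 and 0.49. Lists of cell type markers are not drawn.

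The largest differences among abundant genes were not even in the direction of the gap within the pair. Of the 10 largest lower differences among genes above 10 RPKM in all 3 libraries, miR-93 was below miR-106b in 5. Of the 10 largest higher differences it was below in 9. A gap under 1.3-fold was found in 2 of the 10 genes in each set, but the widest gaps were in the higher set. On the log2 scale, miR-93 minus miR-106b reached −2.62 in Nppa in the higher set and 0.93 in Myl7 in the lower set. Over all 464 genes that were 2-fold or more higher, miR-93 was 1.3-fold or more below miR-106b in 27.8% and above it in 7.76%, against 8.14% and 6.82% over all tested genes. Over the 626 genes that were 2-fold or more lower, it was below in 20.8% and above in 16.3%, so wide pairs were found on both sides. Casq1, a calcium-binding protein of the sarcoplasmic reticulum, had 167 and 49.8 RPKM in the pair, 373 with miR-25 and 127 with the control. Its difference was 2.04, or 1.16 without miR-93, and its pair was further apart than miR-106b was from miR-25. Sfrp1, a secreted inhibitor of Wnt signalling, had 23.6, 19.6, 89.6 and 31.1 RPKM in the same order, so that a close pair stood far below miR-25. Enah, a regulator of actin filaments, had 37.7, 14.3, 89.1 and 89.3 RPKM, with the control at the level of miR-25, and a difference of 1.94, or 1.24 without miR-93.

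On the low side, Ckm, the creatine kinase of muscle, had 142 and 221 RPKM in the pair, 28.2 with miR-25 and 149.9 with the control. Sh3kbp1, an adaptor of receptor endocytosis, had 70.4, 76.8, 13.2 and 28.5 RPKM in the same order. Over all tested genes, 89 were 4-fold or more lower and 31 were 4-fold or more higher. A pair within 1.1-fold and a miR-25 value 4-fold or more away was found in 10 genes, 7 of them lower. Tecrl, an endoplasmic reticulum protein in which mutations cause inherited arrhythmia, had 20.8, 22.5, 1.13 and 14.7 RPKM, which made it 19.2-fold lower with miR-25. Mrvi1, which relays nitric oxide signals in smooth muscle, had 1.03, 1.07, 5.85 and 2.04 RPKM and was among the 3 that were higher.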

How the data were processed

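RNA of 4 cultures, 1 for each mimic, was sequenced on an Illumina instrument. The authors checked reads with FASTQC, trimmed them with Cutadapt, aligned them to Rnor 6.0 with STAR 2.7 according to the submitters' processing notes, rounded gene counts and deposited RPKM values from edgeR. The counting program is not given in the sources used here. The deposited table of the series and the 4 sample files were identical. From the RPKM steps, whole reads were recovered for 15731 of 15731 genes at a tolerance of 0.001, and 95% intervals were computed from these reads by a normal approximation on the log scale, tested on simulated data. No count test was run, since 1 library a mimic leaves no residual spread.

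Differences were log2 RPKM without a pseudocount, with cutoffs of RPKM 1.0 and 1.3-fold. A gene was named when it was among the 10 largest differences in either direction above RPKM 10 with miR-25 outside the pair, among the 5 largest of a list or nearest 0 in it, or named by the study as a cell cycle or heart gene. Other named genes were chosen after their values were seen. Not every gene that met the rule is reported here. The members and lists were chosen with earlier results of these data known. Of 176 symbols listed more than once, the 363 rows stayed out of the lists, and the 288 of them that passed the RPKM cutoff entered the counts over all genes. Promoters were matched by symbol or synonym. Shares of gene sets were given only where 80% of a set had a promoter, so the genes past 2-fold, with 431 of 593 lower and 334 of 457 higher, were left out. The share over all tested genes, given for reference, rests on 8171 of 11079 and does not meet this rule. Alternatives were other cutoffs, pseudocounts, centring, the arithmetic mean of the pair and each library of the pair alone. Python 3.11.15, numpy 2.4.6 and pandas 2.3.3 were used.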

Additional observations from a re-analysis of the deposited data

How the results depend on the processing

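The counts of higher and of lower genes moved by over 1.5 times with the fold cutoff and with some RPKM cutoffs. At 1.5-fold, 1366 genes were higher and 1573 lower, and at 2-fold 464 and 626, with 788 past 2-fold from each of the pair. With RPKM above 10, 698 of 4278 genes were higher and 919 lower, and with no RPKM cutoff 3915 of 15356 were higher and 4089 lower. These alternatives change the genes tested or the size required. Against 1 library of the pair, higher genes numbered from 2414 to 2424 and lower genes from 2568 to 2571. Under RPKM above 2.0, a cutoff passed in any library, pseudocounts of 0.1 and 1, centring on the median, the arithmetic mean and symbols listed once, the counts of higher and of lower genes stayed within 1.5 times those given. So did they after taking off the median of the length decile, an alternative chosen after seeing the data. The count past the cutoff from each of the pair was run at 2-fold, at RPKM above 2.0 and centred, and stayed within 1.5 times in the last 2. Of 31 list medians, 13 were past 1.3-fold, and 1 of these turned its sign, that of the macrophage list at RPKM above 2.0, which left 2 genes and a median of 0.086. Besides it, 4 of the 13 went under 1.3-fold in some alternative, those of the calcium list at −0.28 and of the epicardial list at 0.16 with RPKM above 10, of the miR-25 family targets at −0.36 with RPKM above 2.0 and of the smooth muscle list at 0.37 without miR-93. Of the other 18 medians, all under 1.3-fold, 6 changed sign in some alternative, those of the matrix, sterol, growth-associated, miRNA machinery, endothelial and Schwann lists. Of 183 named genes, 143 were past 1.3-fold and none of these changed its sign, while 24 of the other 40 did, each with a difference of 0.117 or less in size. No paired analysis was possible because each mimic had 1 library. Seed matches were not run, as no 3′ untranslated regions were used here. Depth limits genes near the cutoff most, and 1 culture a mimic limits all differences.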

Other observations

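Replication histone genes, which are made mainly in S phase, were described after their values were seen. Of 21 tested genes, 20 were 1.3-fold or more lower with miR-25 (22.8% of all genes tested) and none was higher (21%). At 2-fold or more, 19 were lower (5.65% of all genes tested), and the median was −2.14. Hist1h3a had 219.8 and 136.6 RPKM in the pair, 26.7 with miR-25 and 105 with the control. Hist1h2bb had 113, 79.8, 15.4 and 59.5 RPKM in the same order. The genes lay 1.3-fold or more below both libraries of the pair in 20 of 21 cases. By the same margin miR-93 was below miR-106b in 11 (8.14% of all genes tested). With the median of the length decile taken off, the median of these short genes was −1.87. Histone genes have near-identical copies, so their reads may be split between copies. Of 13 mitochondrially encoded genes, which were also listed after their values were seen, 7 were 1.3-fold or more lower and none was higher. These compare with 22.8% and 21% of all genes tested, and the median was −0.51.

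Some genes were above the RPKM cutoff on 1 side only and so did not enter the comparison. Above RPKM 3 in both libraries of the pair and at or below 1 with miR-25 were 35 genes. Hrc, a histidine-rich calcium-binding protein of the sarcoplasmic reticulum, had 13.9 and 15.4 RPKM in the pair, 0.750 with miR-25 and 3.16 with the control. Scn4b, a beta subunit of sodium channels, had 7.43, 12.4, 0.0773 and 1.87 RPKM in the same order. Foxm1, a transcription factor of mitotic genes, had 3.27, 3.10, 0.932 and 2.42 RPKM. Above RPKM 3 with miR-25 and at or below 1 in both libraries of the pair were 18 genes. Ano3, of the anoctamin family, had 0.951, 0.760, 14.2 and 0.731 RPKM, and the intermediate filament gene Krt14 had 0.646, 0.738, 3.11 and 0.434 RPKM.

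Muscle forms of metabolic proteins, picked after their values were seen, were low with miR-25. Mb, myoglobin, had 298 and 256 RPKM in the pair, 51.2 with miR-25 and 252 with the control. Cox6a2, the muscle form of a cytochrome oxidase subunit, had 324, 248, 88.8 and 515 RPKM in the same order. Low values were not limited to muscle forms, since Cox8a stood at −1.43, Cox6a1 at −0.93 and Pgam1 at −1.73, while Eno1 stood at −0.02. Casq1 was an exception, chosen in the same way, among genes of skeletal muscle, with its highest value in the miR-25 library.

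Lists of cell type markers differed in direction. Over all genes tested, 22.8% were 1.3-fold or more lower and 21% were higher, and the small lists below are to be read beside these shares. Of 8 tested atrial markers, 5 were 1.3-fold or more lower and 2 were higher, among them Nppa, with a median of −0.88. Of 11 cardiomyocyte markers 7 were lower and 1 was higher, with a median of −0.64, and of 10 fibroblast markers 5 were lower and 3 were higher. Of 9 epicardial and mesothelial markers 5 were higher and 1 was lower, with Upk3b, a mesothelial uroplakin, at 5.91 and 7.30 RPKM in the pair, 15.03 with miR-25 and 4.49 with the control. The lower one, Aldh1a2, had the largest difference of that list, at −1.53, while Wt1, Msln and Tbx18 stood at 0.09, 0.16 and −0.03. Of 7 macrophage markers 5 were lower and 1 was higher, Lyz2, a lysozyme, at 0.99, with C1qa, a complement chain, at 4.43 and 4.86 RPKM in the pair, 1.26 with miR-25 and 3.87 with the control. Schwann and neural markers had 2 tested genes, both under 1.3-fold. Among 4 tested endothelial markers 1 was lower.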
